A study of Rattus norvegicus with 24 samples.

Results

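The mitochondrial ribosomal protein genes are the nuclear genes with symbols beginning Mrpl or Mrps followed by a number, for proteins of the large and small subunits of the mitochondrial ribosome. Members were taken by symbol from the array annotation, on probe sets with a single gene symbol and a log2 level above 4 on at least 6 arrays, with each gene read from its brightest probe set on average. This gave 73 genes, of 8737 single-symbol genes that passed the same filter. The 73 came from 97 probe sets, of which 83 passed; the 14 that did not all belonged to genes with another probe set that did. RefSeq (GRCr8) lists 78 protein-coding rat genes with such symbols, and all 73 symbols are among them.

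RNA was from the dentate gyrus, a hippocampal region whose principal cells are granule neurons, dissected from individual male Long-Evans rats and hybridized to Affymetrix Rat Genome 230 2.0 arrays. The groups were 8 young rats aged 6 months, 6 aged unimpaired rats and 7 aged impaired rats, the aged rats being 24 to 26 months old. No group received a treatment or carried an allele; unimpaired rats had scored within the young range in a Morris water maze, a test of spatial memory, and impaired rats had scored worse, so impairment is defined by that single task. The labels call the arrays biological replicates. Levels are deposited log2 summaries in which other cell types of the dissected tissue are included, and fewer cells of a type cannot be told apart from less RNA per cell.

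The mitochondrial ribosome translates the few proteins that mitochondrial DNA encodes, which are subunits of the respiratory chain and ATP synthase. Its rRNAs are made inside the organelle, while its proteins are encoded in the nucleus, translated in the cytosol and imported. Many have bacterial counterparts and others were added during mitochondrial evolution; neurons depend on the respiratory chain for much of their ATP. Of the members, 48 belong to the large subunit and 25 to the small one, and 42 have a bacterial counterpart while 31 are specific to mitochondria. Mrps18a and Mrps30 are named for the small subunit but sit in the large one and were counted there.

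Promoters were examined because the proteins must be made together, and 59 of the 73 members had an entry among RefSeq promoters (GRCr8), each 300 bases long with 250 before the start and 50 after it. Letters recognized by 3 factors tied to nuclear-encoded mitochondrial genes were searched on both strands. The NRF1 letters GCGCATGCG, or CGCATGCGC on the other strand, were in 5 of the 59 (8.47%) against 1.93% of 21851 protein-coding promoters. The ETS family letters CCGGAAG, or CTTCCGG on the other strand, which GABP can bind, were in 19 (32.2%) against 10.7%. The YY1 letters AAGATGGCG, or CGCCATCTT, were in 8 (13.6%) against 2.07%. No motif contains another, though neighbouring matches can share up to 3 letters at their ends, and any of them was in 28 members (47.5%) against 13.8% of protein-coding promoters. A match is a description of letters and not a binding site. The 4 promoters below are shown because Mrps31 had the lowest p among members between the aged groups, Mrpl32 and Mrpl44 are 2 of the 5 holders of the NRF1 letters, the others being Mrpl17, Mrpl22 and Mrps18b, and Mrpl36 holds both other motifs. Each is the 250 bases before the start, on the gene's strand, with the motif in capitals; in Mrpl32 and Mrpl44 the NRF1 letters match on both strands, which gives a run longer by a base. Counted back from the start, the ETS letters of Mrps31 begin at -94, the NRF1 letters of Mrpl32 at -62 and of Mrpl44 at -132, and Mrpl36 has ETS letters at -75 and YY1 letters at -17. In order they lie at chr16:76324066-76324315 (minus strand), chr17:55260401-55260650 (plus), chr9:88554800-88555049 (plus) and chr1:31795122-31795371 (minus).
Mrps31: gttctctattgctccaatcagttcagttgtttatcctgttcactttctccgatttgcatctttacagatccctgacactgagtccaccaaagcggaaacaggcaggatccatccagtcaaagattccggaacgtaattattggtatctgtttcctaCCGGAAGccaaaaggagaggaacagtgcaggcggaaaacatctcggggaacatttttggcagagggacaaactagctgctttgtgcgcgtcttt
Mrpl32: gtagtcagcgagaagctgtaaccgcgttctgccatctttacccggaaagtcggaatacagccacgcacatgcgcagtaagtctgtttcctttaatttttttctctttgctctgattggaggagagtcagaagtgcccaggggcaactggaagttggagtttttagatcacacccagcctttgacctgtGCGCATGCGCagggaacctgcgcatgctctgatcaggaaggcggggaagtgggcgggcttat
Mrpl44: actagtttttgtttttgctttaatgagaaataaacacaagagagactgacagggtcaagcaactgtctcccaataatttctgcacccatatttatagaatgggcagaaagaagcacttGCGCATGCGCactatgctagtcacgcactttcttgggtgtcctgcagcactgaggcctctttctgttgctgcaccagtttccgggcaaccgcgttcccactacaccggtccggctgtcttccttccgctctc
Mrpl36: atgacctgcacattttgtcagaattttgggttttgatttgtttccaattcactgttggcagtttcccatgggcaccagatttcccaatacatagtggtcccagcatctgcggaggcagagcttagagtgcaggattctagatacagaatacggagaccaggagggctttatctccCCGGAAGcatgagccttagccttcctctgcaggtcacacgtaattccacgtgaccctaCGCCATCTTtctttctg

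The members also lay back to back with other genes. A protein-coding gene on the opposite strand started within 1000 bases upstream in 17 of 59 (28.8%) against 6.86% of protein-coding genes. Mrpl46, a large subunit member, and Mrps11, a small subunit member, start 234 bases apart and read away from each other. Other such neighbours were Tcp1, for a chaperonin subunit, 425 bases from Mrpl18, Psma2, for a proteasome subunit, 210 bases from Mrpl32, and Hira, for a histone chaperone, 186 bases from Mrpl40. The median promoter held 18 CpG dinucleotides against 11, at a GC content of 56% against 55%.

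The tissue carried its defining transcripts. Of 8 granule neuron markers on the array, 6 passed the filter, among them Prox1 at 10.55 to 11.05 and Calb1 at 10.91 to 11.62, while Tdo2 and Pdzd2 did not. Markers of CA3 and CA1 pyramidal neurons were also present, 7 of 8 passing. Meningeal markers, of which 2 of 9 passed, were high on 4 arrays. Their mean was 5.45, 5.34 and 4.80 for replicates 2, 3 and 7 of the impaired group and 4.65 for replicate 5 of the young group, and at most 4.28 elsewhere. Of 6 choroid plexus markers 1 passed, Ttr, at 4.11 to 10.78. Their mean was 3.78 on young replicate 2, 3.59 on unimpaired replicate 3, and 3.17 and 3.69 on impaired replicates 3 and 7. It was at most 2.89 elsewhere. Young replicate 2 and unimpaired replicate 3 are not among the arrays with high meningeal markers.

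Every member had values in every group, at mean log2 levels from 4.02 to 10.54 with a median of 8.44. Levels of different probe sets are not comparable as abundance, since probes differ in brightness. The brightest were Mrpl17 (10.54), Mrpl53 (10.53) and Mrpl33 (9.91), all large subunit proteins, and Mrpl17 and Mrpl33 have bacterial counterparts. The dimmest were Mrpl46 (4.02), Mrpl2 (5.61), whose bacterial counterpart lies by the peptidyl transferase centre, and Mrps27 (5.98), a pentatricopeptide repeat protein of the small subunit. Mrpl46 lay just inside the filter, above 4 on 15 of 21 arrays. It was not above 4 on unimpaired replicates 1, 3, 4 and 8, young replicate 2 and impaired replicate 4. The nearest probe set outside the filter was a further Mrps2 probe set with a mean of 3.18.

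The members were also steady from rat to rat. Their within-group SD had a median of 0.0997, against 0.135 over all 15177 probe sets tested, 0.0719 for 71 oxidative phosphorylation subunit genes and 0.0879 for 47 cytosolic ribosomal protein genes. The median log2 levels of these sets were 8.44, 7.78, 11.28 and 12.29 in that order. Members are the brightest probe sets of their genes, while all probe sets tested include dimmer ones of the same gene. The sets were not matched on level. After group means were removed, 1990 of 2628 pairs of members (75.7%) correlated above 0 over the 21 arrays, with a mean r of 0.17. The mean r was 0.048 over all probe sets tested, 0.39 for oxidative phosphorylation and 0.50 for cytosolic ribosomal proteins. These pairs share arrays and any array-wide shift, so the values are a description.

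No member passed the test in any comparison. In the limma fit, with p adjusted by Benjamini-Hochberg over all 15177 probe sets, 0 of 73 passed an adjusted p of 0.05 for impaired against young, where 0.514% of all probe sets passed, and 0 for unimpaired against young, where 1.13% did. Likewise 0 passed for impaired against unimpaired, where the share was 0%, and 0 for the mean of the aged groups against young, where it was 1.11%. The lowest adjusted p among members was 0.280, 0.0942, 0.129 and 0.190 in that order. At an unadjusted p below 0.05 the limma fit had 3, 15, 7 and 8 members in that order, given by direction with each comparison.

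The intervals put a limit on what was missed. The 95% interval of the difference lay within 1.25-fold either way, 0.322 on the log2 scale, for 71 members in impaired against young, 66 in unimpaired against young, 65 in impaired against unimpaired and 72 for the aged mean. These are 97.3%, 90.4%, 89.0% and 98.6% of members, against 77.3%, 72.8%, 72.4% and 82.6% of all probe sets tested. As with the SD, the members and all probe sets were not matched on level. Within 1.5-fold lay all 73 members in all 4 comparisons. The median size of the difference was 0.041, 0.051, 0.050 and 0.036 for members, against 0.060, 0.075, 0.074 and 0.057 for all probe sets. The bounds hold for GCRMA values of bulk tissue and for these rats.

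**Figure D1:**
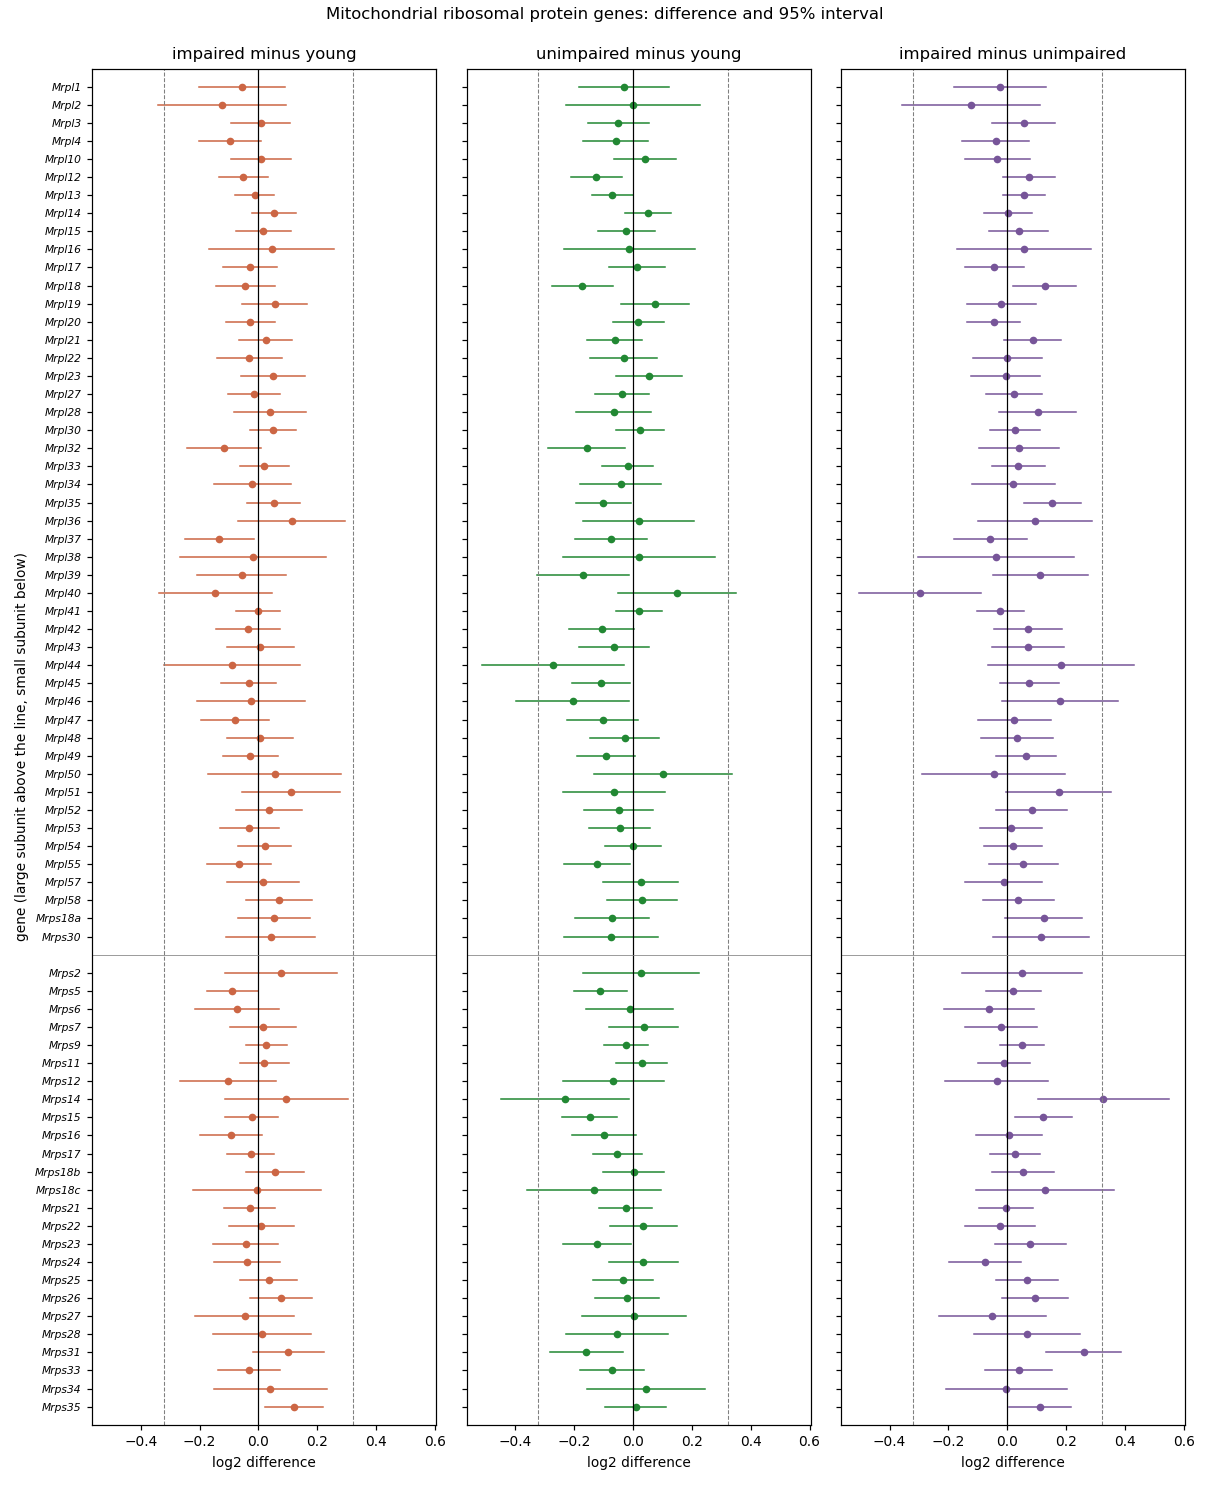
Log2 difference (point) and 95% interval (line) of each of the 73 genes in the 3 pairwise comparisons, with large subunit genes above and small subunit genes below the grey line; dashed lines mark 1.25-fold. Most intervals lie between the dashed lines, and Mrps14, Mrps31 and Mrpl40 stand farthest from 0 in impaired against unimpaired.

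**Figure D2:**
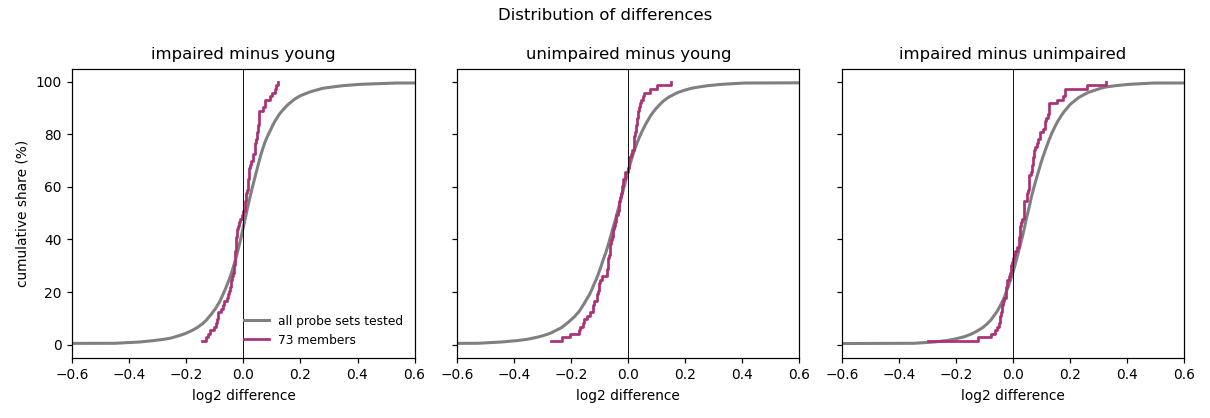
Cumulative share (%) of the 73 members and of all 15177 probe sets tested against the log2 difference, 1 panel per pairwise comparison. The curve of the members is steeper and crosses 50% close to that of all probe sets. From left to right as deposited, the medians are -0.0024 against 0.010, -0.038 against -0.039 and 0.038 against 0.051. The members' medians in the middle and right panels turn sign when each array is centred on the median of its tested probe sets.

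Impaired and young rats had nearly the same levels across the family. Of 73 members, 36 had a positive difference, against 55.2% of all probe sets, and the median was -0.0024 (all probe sets 0.010), with a range of -0.147 to 0.120. At an unadjusted p below 0.05 there was 1 member higher, against 7.69% of all probe sets, and 2 were lower, against 4.73%; leaving out each array gave 1 to 2 higher and 0 to 4 lower. The large subunit had a median of -0.0080 and the small subunit 0.0099.

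With all arrays in the fit, the largest positive difference was in Mrps35, a small subunit protein specific to mitochondria. Its lowest, median and highest log2 levels were 7.49, 7.61 and 7.77 in young, 7.58, 7.60 and 7.77 in unimpaired, and 7.63, 7.71 and 7.84 in impaired rats. The ranges overlapped, although 7 of 7 impaired arrays lay above the young mean. The difference was 0.12 ± 0.05 (SE, n = 7 and 8; limma adjusted p = 0.280).

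Mrpl37, a large subunit protein specific to mitochondria, stood on the other side. Its levels were 8.42, 8.47 and 8.67 in young, 8.25, 8.42 and 8.63 in unimpaired, and 8.23, 8.41 and 8.48 in impaired rats. All 7 impaired arrays lay below the young mean, and the ranges overlapped. The difference was -0.13 ± 0.06 (SE; limma adjusted p = 0.322).

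The other members at the ends of this comparison differed from young by amounts inside or close to their spread. Mrpl36, the counterpart of bacterial L36, had a difference of 0.11, Mrpl51 0.11 and Mrps31 0.10. In the other direction, Mrpl40 had -0.15, Mrpl2 -0.12 and Mrpl32 -0.12. Their limma adjusted p values ran from 0.448 to 0.689. A further Mrpl40 probe set gave 0.0099 and a further Mrpl51 probe set -0.0091, each of the opposite sign. Without young replicate 5 and impaired replicates 2, 3 and 7, the 4 arrays with high meningeal markers, Mrpl36 had a difference of 0.23 (limma adjusted p = 0.412), and 0 members passed.

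Unimpaired rats had lower values than young for more members than not as deposited, by small amounts, but not after median centring or quantile normalization. A positive difference was seen in 24 of 73, against 34% of all probe sets, and the median was -0.038 against -0.039. At an unadjusted p below 0.05, 0 members were higher, against 3.18% of all probe sets, and 15 were lower, against 13.8%. The count of 15 moved with single arrays: without unimpaired replicate 4 there were 5 lower, without young replicate 9 there were 8, and without young replicate 4 or unimpaired replicate 1, 3 or 8 there were 9. With the replicate block there were 3. The shift depended on scaling. With each array centred on the median of its 15177 tested probe sets, 43 members had a positive difference, with a median of 0.017. At an unadjusted p below 0.05, 3 were then higher and 2 lower. With quantile normalization 41 were positive, also with a median of 0.017. The array-wide median was -0.039 as deposited, 0.016 after centring and 0.0058 after quantile normalization. In the same unimpaired arrays the mean of 6 oligodendrocyte markers was 9.98 to 10.34, against 10.34 to 10.62 in young and 10.11 to 10.61 in impaired rats. The mean of 5 endothelial markers was 6.84 to 6.98, against 7.06 to 7.33 and 6.97 to 7.21, and none of these markers failed the filter. Their part in the result was not tested.

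Mrpl18, the counterpart of bacterial L18, was the single member whose groups did not overlap, against 0.843% of all probe sets lower in this way. Groups free of overlap were found for 0 members in every other pairwise comparison and direction, against 0.105% of all probe sets higher in unimpaired than young, 0.171% higher and 0.145% lower in impaired than young, and 0.988% higher and 0.0593% lower in impaired than unimpaired. It lay at 9.80, 9.81 and 10.03 (lowest, median, highest) in young, 9.62, 9.68 and 9.77 in unimpaired, and 9.70, 9.80 and 9.97 in impaired rats. The gap between the highest unimpaired and the lowest young array was small, and impaired arrays spanned it. The difference was -0.17 ± 0.05 (SE, n = 6 and 8), with an unadjusted p of 0.00251 that did not pass (limma adjusted p = 0.0942, range over 30 alternatives 0.0804 to 0.243).

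Mrpl44, a large subunit protein with a ribonuclease III-like fold, had the largest negative difference with all arrays in the fit. Its levels were 6.58, 6.61 and 6.999 in young, 5.83, 6.44 and 6.89 in unimpaired, and 6.34, 6.58 and 6.85 in impaired rats. Unimpaired rats were the most widely spread group, and 5 of 6 lay below the young mean. The difference was -0.27 ± 0.12 (SE; limma adjusted p = 0.236). Without unimpaired replicate 8, the lowest array, it was -0.16 (limma adjusted p = 0.457), and Mrps14, at -0.26, was then the more negative.

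Mrpl32, the counterpart of bacterial L32 and a substrate of the m-AAA protease of the inner membrane, lay below the young mean on every aged array. It was at 7.15, 7.19 and 7.37 in young, 6.72, 7.14 and 7.17 in unimpaired, and 6.95, 7.15 and 7.18 in impaired rats. The ranges overlapped at their edges. For the mean of the aged groups the difference was -0.14 ± 0.05 (SE; limma adjusted p = 0.220, 13 of 13 below the young mean). Mrps5 and Mrpl47, chosen after their values were seen, were also below on 13 of 13, with differences of -0.10 ± 0.04 and -0.09 ± 0.05 (SE; limma adjusted p = 0.190 and 0.395). For Mrpl47 the young mean was raised by replicates 5 and 9, at 6.69 and 6.88. Its other young arrays lay at 6.37 to 6.53 and its aged arrays at 6.36 to 6.49. The share of all probe sets below on 13 of 13 is not given here. Over the comparison of the aged mean with young, 26 of 73 members had a positive difference, against 43.2% of all probe sets, and 0 were higher and 8 lower at an unadjusted p below 0.05, against 5.06% and 9.53%. The count lower ran from 4 to 10 when each array was left out. With median centring 39 were positive, and 2 were higher and 3 lower at that p.

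Other members at the ends of unimpaired against young were Mrps14 at -0.23 and Mrpl46 at -0.21, with Mrpl40 at 0.15, Mrpl50 at 0.10, Mrpl19 at 0.075 and Mrpl23 at 0.055. Mrpl23 is the counterpart of bacterial L23, which lies at the mouth of the exit tunnel, and Mrpl19 of bacterial L19, while Mrpl50 is specific to mitochondria. Their limma adjusted p values ran from 0.262 to 0.688. Mrpl46 lay about the filter level, at 3.48 to 4.26 in unimpaired and 3.79 to 4.30 in young rats. Further probe sets gave -0.10 for Mrps14, 0.037 for Mrpl40 and 0.13 for Mrpl50.

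Between the aged groups, impaired rats had the higher value for most members as deposited, but not after median centring or quantile normalization. The difference was positive in 50 of 73, against 72.4% of all probe sets, with a median of 0.038 against 0.051. At an unadjusted p below 0.05, 6 members were higher, against 12.8% of all probe sets, and 1 was lower, against 1.65%. Without unimpaired replicate 7 there were 11 higher, without impaired replicate 8 there were 10, and without unimpaired replicate 4 there were 4 higher and 2 lower. This too turned with scaling: 26 members were positive with median centring, with a median of -0.023, and 3 were higher and 5 lower at that p. With quantile normalization 25 were positive, with a median of -0.028, and 3 were higher and 6 lower. The comparison shares the unimpaired arrays with unimpaired against young.

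Mrps31, a small subunit protein specific to mitochondria, had the lowest p. Its lowest, median and highest levels were 6.91, 7.05 and 7.25 in young, 6.71, 6.90 and 7.07 in unimpaired, and 7.04, 7.16 and 7.26 in impaired rats. The aged groups overlapped by less than 0.1 on the log2 scale, and young rats lay across both. The difference was 0.26 ± 0.06 (SE, n = 7 and 6), with a 95% interval of 0.13 to 0.39, and 7 of 7 impaired arrays lay above the unimpaired mean. It did not pass (limma adjusted p = 0.129, range over 30 alternatives 0.088 to 0.316). Without the 4 arrays with high meningeal markers it was 0.27 (limma adjusted p = 0.276).

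Mrps14, the counterpart of bacterial S14, had the largest positive difference with all arrays in the fit. Its levels were 8.89, 9.14 and 9.35 in young, 8.58, 8.95 and 9.20 in unimpaired, and 8.97, 9.22 and 9.58 in impaired rats. The lowest impaired array lay below 3 of the unimpaired arrays. The difference was 0.33 ± 0.11 (SE; limma adjusted p = 0.202), and 0.41 (limma adjusted p = 0.330) without the 4 arrays with high meningeal markers. A further Mrps14 probe set gave 0.09 ± 0.06 (SE), so the size was not shared by both.

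Mrpl40, a large subunit protein specific to mitochondria whose human gene lies in the region deleted in DiGeorge syndrome, ran the other way. Its levels were 6.47, 6.79 and 7.19 in young, 6.75, 6.997 and 7.16 in unimpaired, and 6.36, 6.71 and 6.77 in impaired rats. The highest impaired arrays just reached the lowest unimpaired ones. The difference was -0.30 ± 0.10 (SE; limma adjusted p = 0.207), with 7 of 7 impaired arrays below the unimpaired mean. A further probe set of the gene gave -0.03 ± 0.05 (SE).

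Among the other members at the ends, Mrpl44 had 0.18 and Mrpl46, whose probe set is the dimmest and fell below the filter level on most unimpaired arrays, also 0.18. Without unimpaired replicate 8 these were 0.069 and 0.10. In the other direction Mrpl2 had -0.12, Mrps24, the counterpart of bacterial S3, -0.076 and Mrps6, the counterpart of bacterial S6, -0.062. Their limma adjusted p values ran from 0.389 to 0.720. Of the 9 members with several probe sets that passed the filter, 0 had probe sets of opposite sign at least 0.3 apart in a pairwise comparison. With differences this small such a gap could hardly occur, so the 0 is no sign of agreement. Probe sets of Mrpl10, Mrpl40, Mrpl51, Mrps2, Mrps9, Mrps14 and Mrps24 had opposite signs in at least 1 pairwise comparison, and those of Mrpl49 and Mrpl50 in none. In impaired against young, Mrps2 probe sets had -0.17 and 0.077.

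**Figure D3:**
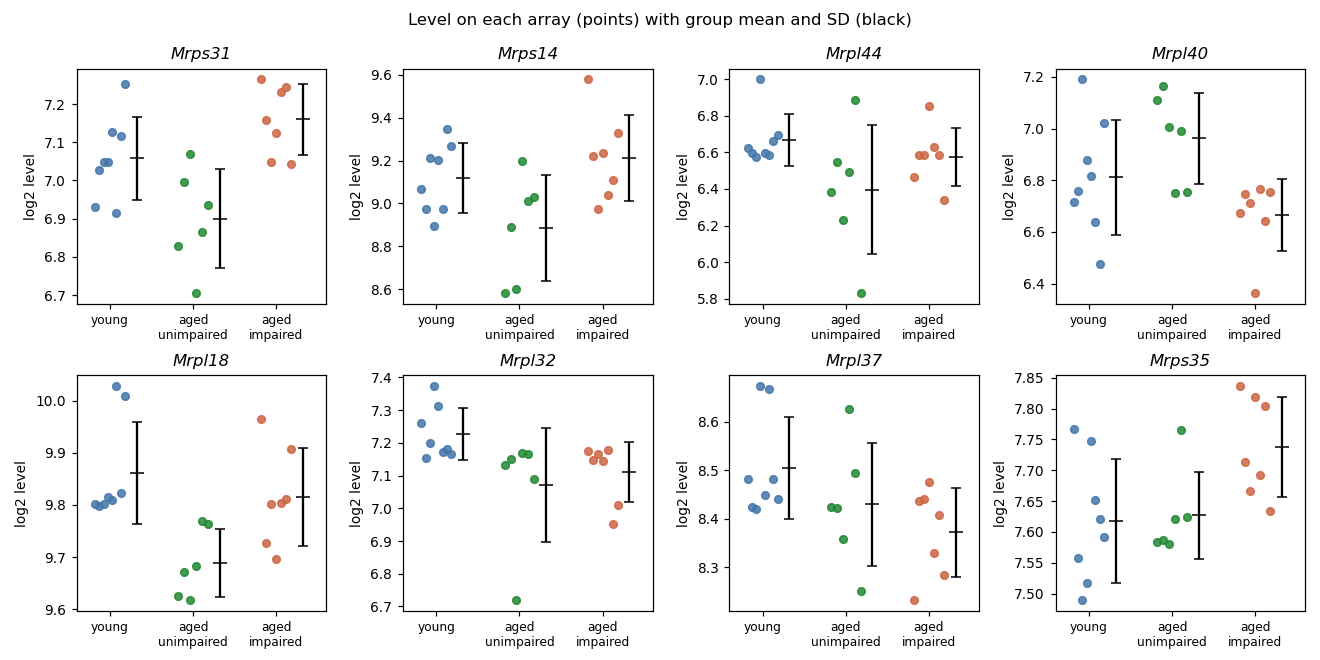
Log2 level on each array (points) of 8 members, by group, with the group mean and SD in black; each panel has its own axis, which does not start at 0. Unimpaired rats are low for Mrps31, Mrps14 and Mrpl18, impaired rats are low for Mrpl40, and every pair of groups overlaps except young and unimpaired for Mrpl18.

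By subunit the medians lay close together, and by origin less so between the aged groups. In impaired against unimpaired the median difference was 0.038 for 48 large subunit members and 0.038 for 25 small subunit members, and in unimpaired against young -0.043 and -0.025. Members with bacterial counterparts had medians of 0.025 and -0.034 in those comparisons, and those specific to mitochondria 0.064 and -0.044. Of the 7 members at an unadjusted p below 0.05 between the aged groups, 4 were small subunit genes, all higher, and 3 were large subunit genes, of which Mrpl40 was lower. After median centring the subunit medians turned to -0.023 and -0.022 in impaired against unimpaired and to 0.012 and 0.030 in unimpaired against young. For members with bacterial counterparts they turned to -0.036 and 0.020, and for those specific to mitochondria they became 0.0031 and 0.011. In the aged mean against young as deposited, 7 of 42 members with bacterial counterparts (16.7%) were lower at an unadjusted p below 0.05. Of the 31 specific to mitochondria 1 was (3.23%), against 9.53% of all probe sets.

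The mean of the 73 members on each array gave the same picture. It was 8.27 ± 0.03 (SD, n = 8) in young, 8.23 ± 0.07 (n = 6) in unimpaired and 8.27 ± 0.05 (n = 7) in impaired rats. The arrays ran from 8.22 to 8.31, from 8.14 to 8.32 and from 8.20 to 8.33, so the groups overlapped. Set against the mean of all tested probe sets on the same array, it was 0.51 ± 0.03, 0.51 ± 0.04 and 0.49 ± 0.04 (SD). The oxidative phosphorylation subunits lay 3.28, 3.28 and 3.25 above that mean in young, unimpaired and impaired rats, and the cytosolic ribosomal proteins 3.65, 3.67 and 3.66.

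**Figure D4:**
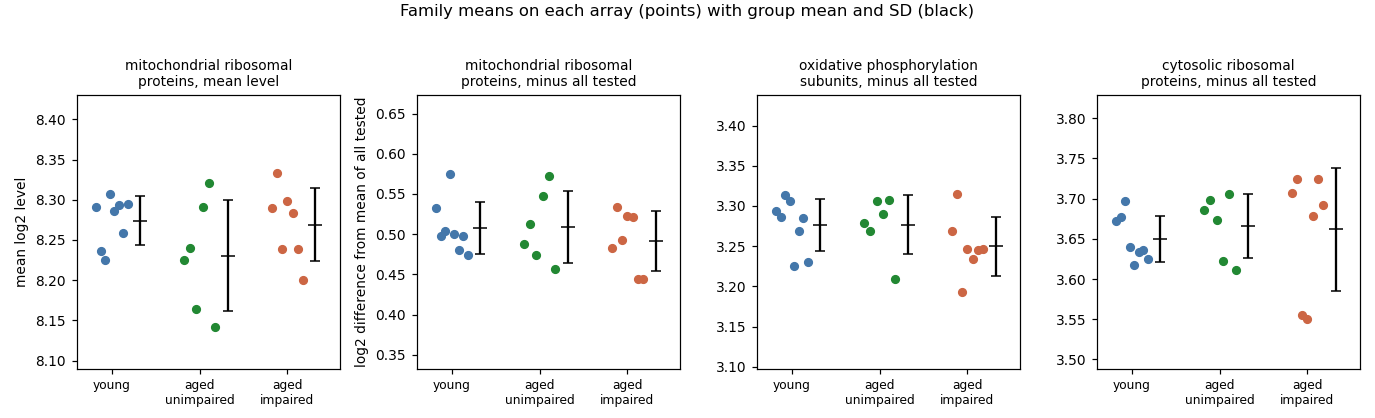
Mean log2 level of the 73 members on each array, and the mean log2 difference from all tested probe sets for the members, 71 oxidative phosphorylation subunits and 47 cytosolic ribosomal proteins, by group; points are arrays, black marks the group mean and SD, and axes do not start at 0. The groups overlap in every panel.

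The gene families that the mitochondrial ribosome serves or resembles were also without a call. The oxidative phosphorylation genes taken here are nuclear, so their proteins are not made by the mitochondrial ribosome. Among 71 oxidative phosphorylation genes, 0 passed in any comparison by limma, and 21, 11 and 56 had a positive difference in impaired against young, unimpaired against young and impaired against unimpaired. In impaired against young 0 of them had an unadjusted p below 0.05. In unimpaired against young 7 were lower at that p (9.86%, against 13.8% of all probe sets) and 0 higher, and in impaired against unimpaired 2 were higher (2.82%, against 12.8%) and 0 lower. Among 47 cytosolic ribosomal protein genes 0 passed, with 34, 12 and 44 positive. These were taken by symbols beginning Rplp, or Rpl or Rps followed by a number. Genes for other proteins that share the prefix were not removed, and mean levels in the list ran from 5.17 to 14.10. At an unadjusted p below 0.05, 2 of them were higher in impaired against young (4.26%, against 7.69%), 1 was lower in unimpaired against young (2.13%, against 13.8%) and 2 were higher in impaired against unimpaired (4.26%, against 12.8%). These splits moved with scaling as well: after median centring 17, 42 and 17 of the oxidative phosphorylation genes and 31, 37 and 14 of the cytosolic ribosomal protein genes were positive.

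Other genes of mitochondrial translation stayed below the threshold on the deposited values. Of 71 listed, 66 were on the array and 52 passed the filter, and 0 of the 52 passed limma's test in any comparison. At an unadjusted p below 0.05, 5 were higher and 2 lower in impaired against young (9.62% and 3.85% of the list, against 7.69% and 4.73% of all probe sets). In unimpaired against young 1 was higher and 6 lower (1.92% and 11.5%, against 3.18% and 13.8%), and in impaired against unimpaired 10 and 1 (19.2% and 1.92%, against 12.8% and 1.65%). Positive differences numbered 34, 8 and 40 of 52 as deposited and 30, 28 and 31 after median centring.

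Within that list, 5 mitoribosome proteins have names of other kinds: Dap3, Ptcd3, Chchd1, Aurkaip1 and Gadd45gip1. All 5 had a negative difference in unimpaired against young as deposited, from -0.12 to -0.064, and 4 a positive one in impaired against unimpaired; 0 and 4 were positive after median centring. Of the translation factors, Tsfm, the elongation factor Ts of mitochondria, was 7.45 ± 0.15 in young, 7.63 ± 0.11 in unimpaired and 7.66 ± 0.11 in impaired rats (SD). It had a difference of 0.21 ± 0.06 for impaired and 0.18 ± 0.07 for unimpaired against young (SE; limma adjusted p = 0.152 and 0.173). Both aged groups overlapped the young range. For the mean of the aged groups the difference was 0.20 ± 0.06 (SE; limma adjusted p = 0.0955), and it passed after median centring at 0.22 (limma adjusted p = 0.0365) and after quantile normalization at 0.21 (limma adjusted p = 0.0413).

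Among aminoacyl-tRNA synthetases, Tars2, for threonine, was 7.94 ± 0.17 in young, 7.70 ± 0.16 in unimpaired and 7.69 ± 0.11 in impaired rats (SD). Its difference from young was -0.25 ± 0.08 for impaired and -0.23 ± 0.08 for unimpaired rats (SE; limma adjusted p = 0.149 and 0.145), and -0.24 ± 0.07 for the mean of the aged groups (limma adjusted p = 0.0836). Rars2, for arginine, had 0.21 in impaired against young and 0.29 against unimpaired (limma adjusted p = 0.394 and 0.235), at levels near the filter. Hars2, for histidine, had 0.23 in impaired against unimpaired (limma adjusted p = 0.235). Qrsl1, a subunit of the enzyme that makes glutaminyl-tRNA in mitochondria, had -0.21 in impaired against young and -0.15 against unimpaired (limma adjusted p = 0.172 and 0.345).

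The regulators and assembly factors at the ends of the list were also within the test's limits. Lrpprc, which stabilizes mitochondrial mRNAs, had -0.25 ± 0.07 in unimpaired against young (SE; limma adjusted p = 0.103), and Ppargc1a, a coactivator of mitochondrial gene expression, -0.25 ± 0.09 (SE; limma adjusted p = 0.150). Mtg1, a GTPase in large subunit assembly, had 0.11 in the same comparison (limma adjusted p = 0.346). Tfb1m, which methylates the small subunit rRNA, had -0.13 in impaired against unimpaired (limma adjusted p = 0.553). Slirp, outside the naming rule, had 0.22 ± 0.05 there (SE; limma adjusted p = 0.129), the lowest of the list. Of 4 nuclear regulators measured, 3 were higher in that comparison at an unadjusted limma p below 0.05 (75%, against 12.8% of all probe sets). Their median was 0.18 as deposited, with 4 positive, and 0.12 after median centring, with 3 positive. Their lowest limma adjusted p was 0.244.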

How the data were processed

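The authors deposited 1 log2 value per probe set and array, computed by GCRMA according to their entry in the submitters' processing notes; its version is not given in the sources used here. Of 24 labelled arrays, 3 (1 per group) have empty columns, which left 21; young replicate 9 follows its title. GCRMA fits background and probe effects and normalizes across arrays, which can compress low levels and move array-wide shifts. The 3 groups were fitted together with limma 3.58.1 in R 4.3.3 (lmFit, eBayes; 18 residual degrees of freedom), on 15177 probe sets with a log2 level above 4 on 6 or more arrays, and p values were adjusted by Benjamini-Hochberg over all of them. The fit was checked on simulated data. No array date or batch is in the labels, so none was modelled.

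Named by rule were members with an adjusted p below 0.05, the 4 largest differences each way per pairwise comparison, the 3 highest and 3 lowest levels, genes whose probe sets disagreed in sign by 0.3 or more, and, of other mitochondrial translation genes, those passing and the 2 largest each way. The members and lists were chosen with earlier results of these data known. Symbols come from the platform annotation and promoters from RefSeq (GRCr8). Alternatives were the filter, the scaling, array weights, the groups fitted, a replicate block, the mean of probe sets and leaving out arrays. Median centring used the median of the tested probe sets on each array, not that of all its probe sets. The precision is limited by the number of arrays. Figures were drawn with matplotlib 3.10.9 in Python 3.11.15.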

Additional observations from a re-analysis of the deposited data

Results flagged for a closer look

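The 21 named members were looked at in each of the 3 groups, and in 9 of these 63 cases the highest or lowest array stood apart from the rest by Dixon's 95% criterion. For genes not chosen by their values chance gives about 1 in 20; these members were named for large differences or extreme levels, which a single outlying array can help produce, so that rate is no yardstick for the 9. In impaired rats these were Mrpl17 on replicate 8 at 10.36 (others 10.48 to 10.58), Mrpl2 on replicate 8 at 5.12 (5.47 to 5.65), Mrpl40 on replicate 4 at 6.36 (6.64 to 6.77) and Mrps24 on replicate 2 at 8.34 (8.05 to 8.15), the last an array with high meningeal markers. In unimpaired rats they were Mrpl19 on replicate 3 at 8.07 (7.81 to 7.85), Mrpl32 on replicate 4 at 6.72 (7.09 to 7.17) and Mrps35 on replicate 7 at 7.77 (7.58 to 7.62). In young rats they were Mrpl2 on replicate 6 at 5.33 (5.63 to 5.85) and Mrpl44 on replicate 4 at 6.999 (6.58 to 6.70).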

How the results depend on the processing

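No member passed under any of the 30 alternatives for each pairwise comparison or the 29 for the aged mean, and the 24 differences of named members kept their direction and side of the threshold in all 716 refits. Mrpl2 and Mrpl46 had no value under the stricter filter. The named members were picked for large differences in these same data, and 21 of the alternatives leave out a single array, so a kept direction was likely in advance. The median member difference for impaired against unimpaired turned to -0.028 with quantile normalization; the cause was not tested. Leaving out each array in turn gave member medians of -0.015 to 0.0032 for impaired against young, -0.058 to -0.023 for unimpaired against young, 0.012 to 0.053 for impaired against unimpaired and -0.030 to -0.010 for the aged mean, while calls over all probe sets ran from 36 to 161, 59 to 219, 0 to 4 and 89 to 239, against 78, 172, 0 and 168. Without filter, 33, 67, 0 and 90 of 31042 passed, and with only the groups compared in the fit 33, 69 and 1. Leaving out the 4 arrays with high meningeal markers together, chosen after seeing the data, left 29, 95, 0 and 86 calls. With a replicate block, 0 members passed and all probe sets gave 114, 9, 0 and 76 calls, with member medians of 0.010, -0.016, 0.032 and -0.0018. Same-numbered arrays correlated at -0.12 to 0.20 over 17 pairs, 4 of them over 0.1. No value for differently numbered arrays is set beside these, so whether the numbers pair the rats cannot be told. The number of arrays limits what small differences could pass.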
